A study of Mus musculus with 5 samples.

Results

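The genes described here encode neurotrophins and related neurotrophic factors, with their receptors. They are *Bdnf*, *Ntf3* and *Gdnf* among the ligands and *Ntrk2*, *Ntrk3*, *Ngfr*, *Sort1* and *Ret* among the receptors, 8 of the 22380 protein-coding genes of the GENCODE vM1 annotation. Their peaks were the H3K9ac peaks whose centre, as the deposited lists give it, lay within 10 kb of any annotated transcript start of the gene, and each *Bdnf* promoter was described apart. This rule found 11 of the 34286 peaks in DOP-treated cells and 12 of the 33355 peaks in untreated cells. H3K9ac is histone H3 acetylated at lysine 9, a mark of active promoters, and it was measured by chromatin immunoprecipitation and sequencing (ChIP-seq).

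All samples came from STHdh Q111 cells, a conditionally immortalised striatal progenitor line of C57BL/6 origin with the genotype STHdhQ111/Q111, so that treated and untreated cells alike carried mutant huntingtin. Both groups were deprived of serum for 24 h, with 2 samples given 4 mM 4-deoxypyridoxine hydrochloride (DOP), an inhibitor of sphingosine-1-phosphate lyase (SPL), and 2 samples given vehicle. A further sample of untreated cells was precipitated with IgG and was not analysed here. The comparison asks where H3K9ac peaks differ after SPL inhibition. The authors deposited 1 peak list per condition, so no value below has an error between samples, no test between conditions could be made, and the depth per sample is unknown. A difference between the lists may reflect fewer cells carrying the mark or less of the mark per cell, and these cannot be told apart. Each peak has a score whose definition the lists do not give. It was read as a percentile, the share of peaks in the same list with an equal or lower score. A proportional change shared by all peaks leaves a percentile unaltered, and likewise a score taken relative to the list median. The median score was 419 with DOP and 400 without. By western blot the paper reports a higher total level of H3K9ac in these cells after DOP. Small percentile gaps at a gene therefore do not show that its acetylation stayed the same.

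The label of striatal progenitor cells was checked against marker genes. Of 7 neural progenitor markers, *Vim*, *Msi1* and *Hes1* had a peak within 10 kb of a start in each list, whereas *Nes*, *Sox2* and *Pax6* were among those with none. Of 9 striatal lineage markers, 6 had a DOP-treated peak and 5 an untreated peak, among them *Dlx1* and *Meis2*. Among all protein-coding genes the shares were 57.7% and 56.9%. The striatal lineage counts lay near these shares and the progenitor count, 3 of 7 in each list, below them, so the counts do not decide the label. Over all 38 markers of the 7 cell classes the shares were lower than among genes at large, at 47.4% and 39.5%. A peak in each list was also found at all 5 mesenchymal markers, including *Col1a1* and *Twist1*. Of 6 markers of mature striatal neurons 1, *Ppp1r1b*, had peaks in both lists, and of 3 microglial markers 1, *Aif1*, did, with *Cx3cr1* and *Itgam* at none. The highest *Aif1* peaks stood at percentiles 98.1 with DOP and 94.3 without, and whether they lie nearer to another gene was not examined. Of 4 astrocyte and 4 oligodendrocyte markers, *Slc1a3* and *Mbp* had peaks in the DOP-treated list only. Their highest peaks were weak, at percentiles 15.0 and 7.58, and 2.39% of all genes had peaks in that list alone. The other markers of these 2 classes, *Gfap*, *Olig2* and *Sox10* among them, had none. Any part of these cell classes in the results below was not tested.

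Neurotrophins are secreted growth factors that keep neurons alive and shape their connections. They act through Trk receptor tyrosine kinases, each of which prefers certain ligands, and through p75, a shared receptor of lower selectivity. Striatal neurons receive most of their BDNF from cortical axons, and loss of this supply is a known feature of Huntington's disease. *Bdnf* has several promoters, each with its own first exon spliced to a common coding exon, and those respond to different signals. GDNF belongs to another family and signals through the RET receptor with a co-receptor.

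Several of the DNA sequences carry the comparison and are shown in the direction of the gene, from NCBIM37 (mm9), with annotated exons left out. Capitals mark matches, on either strand, to the cyclic AMP response element half-site TGACG (reverse CGTCA), the E-box CACGTG, the GC box GGGCGG (reverse CCGCCC) and the AP-1 site TGANTCA, none of which contains another. The first sequences are the 2 highest DOP-treated peaks downstream of *Bdnf* promoter 3 and the peak between *Bdnf* promoters 5 and 6. They are followed by the 250 bases before *Bdnf* promoter 4, which had no peak of its own, a peak in the first intron of *Gdnf*, the peak upstream of *Sort1* and the 250 bases before the outermost start of *Ntrk3*, a CpG-rich start without a peak.
Bdnf promoter 3, first peak, chr2:109517399-109517598, plus strand: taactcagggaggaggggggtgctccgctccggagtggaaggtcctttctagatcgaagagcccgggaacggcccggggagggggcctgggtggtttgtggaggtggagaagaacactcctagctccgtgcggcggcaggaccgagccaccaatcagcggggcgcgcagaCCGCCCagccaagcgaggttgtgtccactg
Bdnf promoter 3, second peak, chr2:109517752-109517951, plus strand: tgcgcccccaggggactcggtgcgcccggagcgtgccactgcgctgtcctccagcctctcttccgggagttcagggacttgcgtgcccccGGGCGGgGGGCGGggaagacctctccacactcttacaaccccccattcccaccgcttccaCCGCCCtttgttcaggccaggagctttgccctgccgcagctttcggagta
Bdnf between promoters 5 and 6, chr2:109534263-109534462, plus strand: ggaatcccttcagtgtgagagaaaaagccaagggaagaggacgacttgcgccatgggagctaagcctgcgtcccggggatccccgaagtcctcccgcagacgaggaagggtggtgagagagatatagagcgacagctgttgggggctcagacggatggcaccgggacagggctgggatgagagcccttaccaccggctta
Bdnf before promoter 4, chr2:109532343-109532592, plus strand: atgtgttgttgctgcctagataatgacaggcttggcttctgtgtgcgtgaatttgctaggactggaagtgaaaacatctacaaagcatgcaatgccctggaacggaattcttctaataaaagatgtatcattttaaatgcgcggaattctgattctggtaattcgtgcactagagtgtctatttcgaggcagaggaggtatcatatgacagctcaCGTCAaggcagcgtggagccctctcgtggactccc
Gdnf intron peak, chr15:7763161-7763360, plus strand: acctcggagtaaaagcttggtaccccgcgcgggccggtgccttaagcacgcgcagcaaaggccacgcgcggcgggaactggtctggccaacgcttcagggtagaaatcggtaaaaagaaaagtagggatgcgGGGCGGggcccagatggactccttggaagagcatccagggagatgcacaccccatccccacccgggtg
Sort1 upstream peak, chr3:108086620-108086815, plus strand: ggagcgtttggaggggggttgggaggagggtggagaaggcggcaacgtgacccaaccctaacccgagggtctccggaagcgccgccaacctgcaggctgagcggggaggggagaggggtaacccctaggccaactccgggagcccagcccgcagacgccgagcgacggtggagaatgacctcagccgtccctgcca
Ntrk3 before the start, chr7:85723295-85723544, minus strand: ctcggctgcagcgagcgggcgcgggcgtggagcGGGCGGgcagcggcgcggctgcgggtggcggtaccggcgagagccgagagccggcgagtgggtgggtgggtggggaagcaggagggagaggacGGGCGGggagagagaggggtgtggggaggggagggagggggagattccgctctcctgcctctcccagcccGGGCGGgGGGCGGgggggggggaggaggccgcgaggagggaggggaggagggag

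These sequences differ in the motifs they hold. The second peak of *Bdnf* promoter 3 held 3 GC boxes and the first held 1, whereas the peak between promoters 5 and 6 held none of the motifs. A GC box occurred in 28.5% of all DOP-treated peaks and in 29.3% of untreated peaks. In the window before *Bdnf* promoter 4 there was 1 cyclic AMP response element half-site, a sequence that 22.9% of all protein-coding starts hold between 250 bases before and 50 after the start. The *Ntrk3* stretch held 4 GC boxes, and 40.3% of all starts hold at least 1. A match is a description of the letters only.

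H3K9ac peaks lay near *Bdnf*, *Gdnf* and *Sort1* in both lists, and near none of *Ntf3*, *Ntrk2*, *Ntrk3*, *Ngfr* and *Ret*. Thus 2 of the 3 ligand genes and 1 of the 5 receptor genes had a peak, and the same genes had one with and without DOP. Across all protein-coding genes 57.7% had a DOP-treated peak within 10 kb of a start and 56.9% an untreated peak, and 40.7% had neither. A gene with a peak in the DOP-treated list and none in the untreated list made up 2.39% of all genes, and the opposite 1.62%, but no gene of this group was of either kind. Each of the 11 DOP-treated peaks shared bases with an untreated one, and 11 of the 12 untreated peaks had a DOP-treated partner. In the whole lists 80.0% of the DOP-treated and 83.3% of the untreated peaks were shared in this way. The peaks inside the window reached at most 2830 bp from a start, and the nearest peak outside it lay 25406 bp upstream of *Sort1*.

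*Bdnf* (ENSMUSG00000048482.7) encodes brain-derived neurotrophic factor and lies on chromosome 2 from 109514857 to 109567204 (mm9, plus strand). Its 10 annotated transcripts begin at 7 positions, which form 6 promoters when starts within 500 bp are chained. The promoters are numbered here in their order along the gene, and these numbers need not equal the exon numbers of other sources. Promoters 1, 2 and 3 start at 109514857, 109516054 and 109517251. Promoters 4 and 5 start at 109532593 and 109533720, and promoter 6 has starts at 109534626 and 109534628. *Bdnf* had 6 DOP-treated and 7 untreated peaks, and at least as many were found at 6.53% and 3.61% of all genes, while the median in each list was 3 among the genes with a peak there. A gene with several starts has a wider window than one with a single start.

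The peaks of *Bdnf* formed groups at 2 places, downstream of promoter 3 and around promoters 5 and 6. Promoters 1, 2 and 4 were nearest to no peak in either list. The closest DOP-treated peak was centred 2641 bp after promoter 1, 1444 bp after promoter 2 and 1416 bp after promoter 4, and in each case it was nearer to a promoter farther along the gene. The untreated list gave 2644, 1447 and 1444 bp. In both lists the same 3 of 6 promoters therefore had a peak of their own. This number depends on how starts are chained. It was 2 in each list with starts within 1 kb chained, and 4 with each distinct start as its own promoter.

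**Figure D1:**
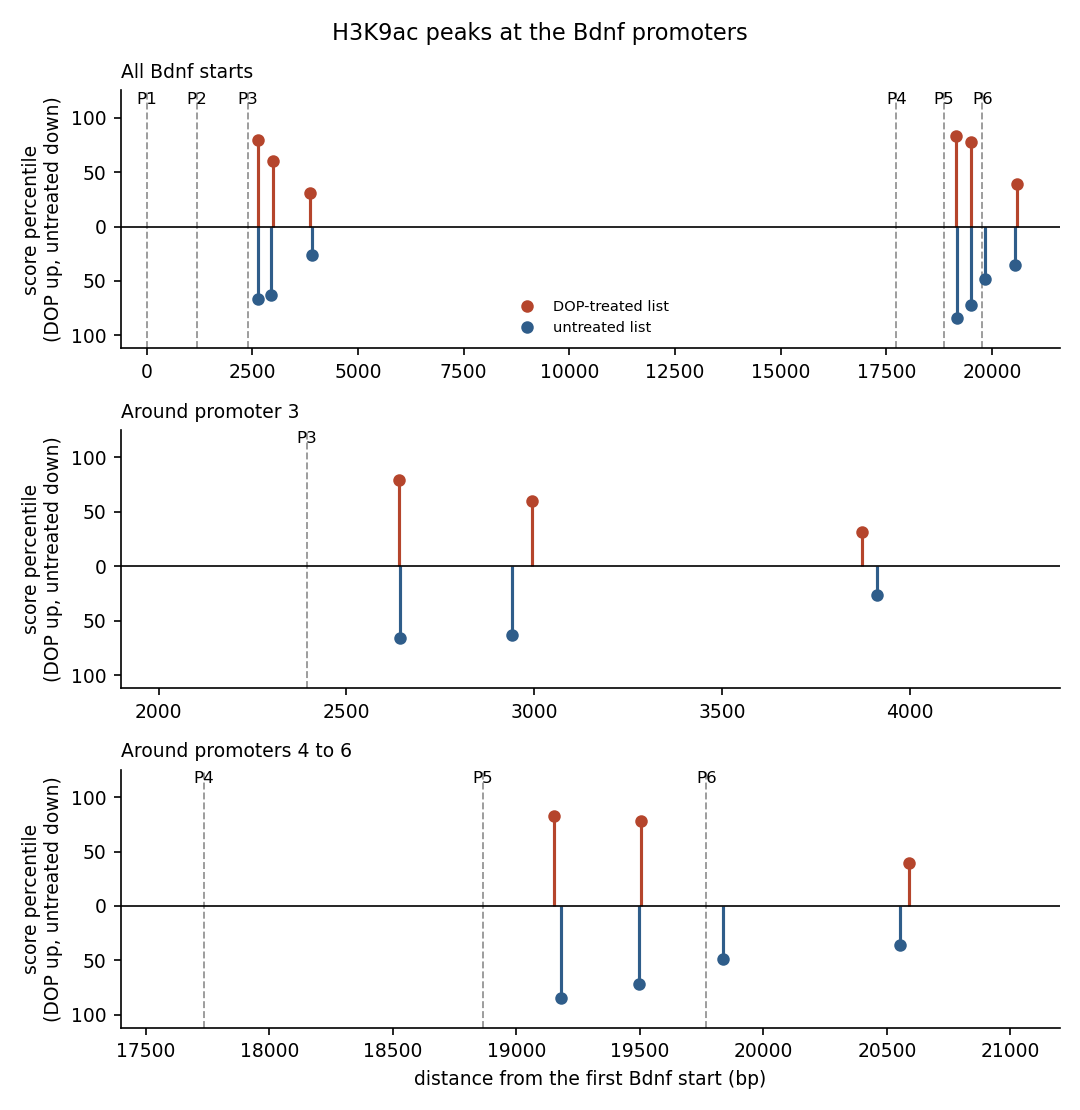
H3K9ac peaks at *Bdnf*, with the distance from the first start in bp on the x axis and the score percentile on the y axis, upward for the DOP-treated list and downward for the untreated list; the upper panel holds all starts and the lower panels enlarge 2 stretches. Dashed lines P1 to P6 are the promoters, each point is 1 peak, and the peaks stand after P3 and around P5 and P6, with an untreated peak at P6 that has no DOP-treated partner.

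At promoter 3, which held 3 peaks in each list, the first peak was centred 247 bp downstream of the start in the DOP-treated list and 250 bp in the untreated list, in an intron. Its score was 815.2 with DOP and 571.1 without, or percentile 79.7 against 66.2. This was the widest gap of any matched peak of the 8 genes. The second peak, 600 and 547 bp downstream, had scores of 517.8 and 529.9 and ranked slightly lower with DOP, at percentile 59.9 against 62.9. The third, 1479 and 1520 bp downstream, was weak in both lists, at percentiles 31.1 and 26.4. The 3 peaks spanned 1432 bp in the DOP-treated list and 1470 bp in the untreated list when centres within 1 kb were chained, which was wider than 91.3% and 92.6% of all such clusters.

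Around promoters 5 and 6 the lists differed by 1 peak. The strongest peak lay 289 bp downstream of promoter 5 with DOP and 317 bp without, in an annotated UTR, with scores of 885.9 and 899.9. At percentiles 82.9 and 84.5 this was the highest *Bdnf* peak of each list. A peak 264 bp upstream of promoter 6 in the DOP-treated list and 274 bp upstream in the untreated list, in an intron, scored 781.1 and 650.6. The untreated list then had a peak centred 65 bp downstream of promoter 6, with a score of 385.4 at percentile 48.5, while the closest centre in the DOP-treated list was 331 bp off. The last peak, 820 and 782 bp downstream, was found in both lists at percentiles 39.1 and 35.6. In the untreated list these 4 peaks formed 1 cluster of 1573 bp. In the DOP-treated list the first 2 formed a cluster of 553 bp and the last stood alone.

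*Gdnf* (ENSMUSG00000022144.3) encodes glial cell line-derived neurotrophic factor and lies on chromosome 15 from 7761011 to 7787575 (plus strand), with 1 annotated transcript. It had 3 peaks in each list, each overlapping its counterpart. The strongest was centred 136 bp upstream of the start with DOP and 126 bp upstream without, and scored 980.0 and 776.0. It stood at percentile 86.4 of the DOP-treated list, the highest of any peak of the 8 genes in that list, and at percentile 79.0 of the untreated list. The other peaks lay in the first intron. One was centred 2249 and 2288 bp downstream, with scores of 497.4 and 363.7 and percentiles of 58.0 and 46.0. The other was centred 2774 and 2830 bp downstream, with scores of 256.6 and 211.3. In each of the 3 pairs the DOP-treated percentile was the higher. The intron peaks also lay near a start that RefSeq places in *Gdnf* and GENCODE vM1 does not. Matched by its sequence to NCBIM37, this start falls at 7763727, and the last DOP-treated and untreated peaks were centred 58 and 114 bp downstream of it.

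**Figure D2:**
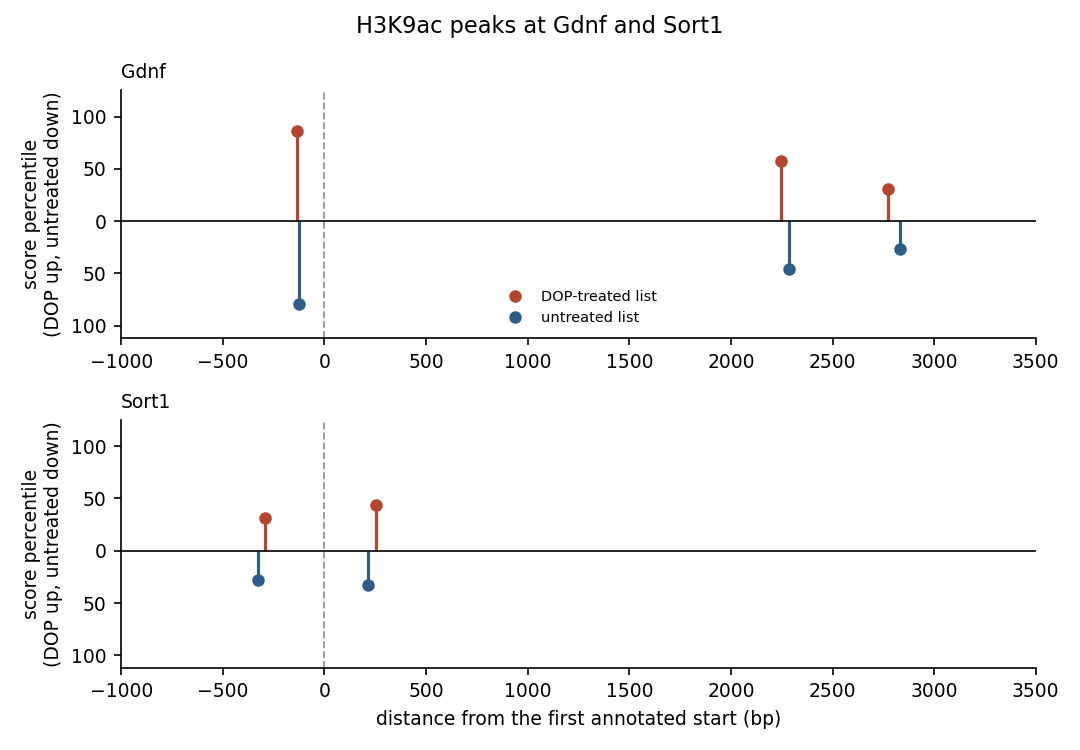
H3K9ac peaks at *Gdnf* (upper panel) and *Sort1* (lower panel), with the distance from the first annotated start in bp on the x axis and the score percentile on the y axis, upward for the DOP-treated list and downward for the untreated list. Each point is 1 peak, each peak has a partner in the other list, and the *Sort1* peaks stand lower than the peak at the *Gdnf* start.

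*Sort1* (ENSMUSG00000068747.7) encodes sortilin, which binds the precursors of neurotrophins, acts with p75 at the cell surface and sorts BDNF inside the cell. It lies on chromosome 3 from 108087009 to 108164429 (plus strand) with 4 annotated starts. It was the only receptor gene of the group with a peak, and its peaks were weak. The first was centred 290 bp upstream of the start with DOP and 328 bp upstream without, and scored 256.0 and 219.0, at percentiles 31.0 and 27.8. The second lay 204 and 166 bp downstream of the nearest start, in a coding exon, and scored 359.0 and 256.0, at percentiles 43.3 and 32.7. The noncoding gene *Gm12523* runs through this second peak on the opposite strand, so the peak cannot be given to one of them alone. Among 12375 genes with a peak in both lists, the highest DOP-treated peak of *Sort1* stood above that of 13.1% and the highest untreated peak above that of 9.49%. The same shares were 56.2% and 61.1% for *Bdnf*, and 63.3% and 51.0% for *Gdnf*. The inner starts of *Sort1*, at 108148739 and 108158385, had no peak within 10 kb. Peaks 25406 bp and more upstream of *Sort1* were nearest to *Psma5*, and those 28158 bp and more downstream of its last start were nearest to *Psrc1*.

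No peak lay within 10 kb of any start, or anywhere inside the gene, for the other 5 genes. *Ntrk2* (ENSMUSG00000055254.7, chromosome 13 from 58907957 to 59235331) encodes TrkB, the receptor of BDNF. Its closest DOP-treated peak was 38145 bp upstream of the gene, with a score of 23.0, the lowest of the whole list, and its closest untreated peak lay 403289 bp upstream, 36 bp from a start of *Hnrnpk*. *Ntrk3* (ENSMUSG00000059146.6, chromosome 7 from 85337248 to 85723294) encodes TrkC, the receptor of neurotrophin-3. The closest peaks were 204500 and 204477 bp upstream of it, both near a start of *Mrpl46*. *Ngfr* (ENSMUSG00000000120.6, chromosome 11 from 95430132 to 95449049) encodes p75. The closest peaks were 73465 bp away with DOP and 73489 bp away without, on the downstream side at *Nxph3*.

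*Ntf3* (ENSMUSG00000049107.7, chromosome 6 from 126051431 to 126116762) encodes neurotrophin-3 and stood farthest from any peak. The closest DOP-treated peak lay 535428 bp upstream of its start and the closest untreated peak 593615 bp downstream of it. *Ret* (ENSMUSG00000030110.6, chromosome 6 from 118101766 to 118147762) encodes the receptor kinase of the GDNF family. Its closest DOP-treated peak was 46233 bp downstream of the nearest start, just past the 3' end of the gene, at percentile 3.63. The closest untreated peak was 58411 bp downstream, 222 bp from a start of *Csgalnact2*. Thus each list held peaks at *Bdnf* and *Gdnf* but none at *Ntrk2* and *Ret*, the receptor kinases of the 2 ligands.

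The starts without a peak were not all poor in CpG, the dinucleotide that marks most constitutive promoters. CpG content is given as observed over expected CpG between 250 bases before and 50 after a start. Its median was 0.49 over 70055 protein-coding starts, 0.80 over those with a peak of either list within 1 kb and 0.25 over those without. The first starts of *Sort1* had ratios of 0.93 and 0.91, and the start of *Gdnf* had 0.84. The inner starts of *Sort1*, which had no peak, were at 0.29 and 0.12. Among the starts of *Bdnf* with a peak within 1 kb, promoter 5 had 0.72, promoter 3 had 0.51 and promoter 6 had 0.46. The *Bdnf* starts without a peak lay in the same range, at 0.47 for promoter 1, 0.57 for promoter 2 and 0.68 for promoter 4.

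The Trk receptor genes had CpG-rich starts with no peak. The 2 outer starts of *Ntrk3* had ratios of 1.13 and 0.94, while its inner start was poor in CpG, at 0.07. Of all starts with a ratio from 1.1 to 1.2, 94.1% had a peak within 1 kb, and of those from 0.9 to 1.0, 92.7%. Of those below 0.1, 3.85% had one. The starts of *Ntrk2* had ratios of 0.79, 0.86 and 0.62, in ranges where 82.9%, 90.0% and 73.4% of all starts had a peak. *Ret* had 0.69 and 0.49, *Ngfr* 0.55 and *Ntf3* 0.44. Starts of 1 gene that lie close together can share a peak and much of their sequence, so they are not independent.

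**Figure D3:**
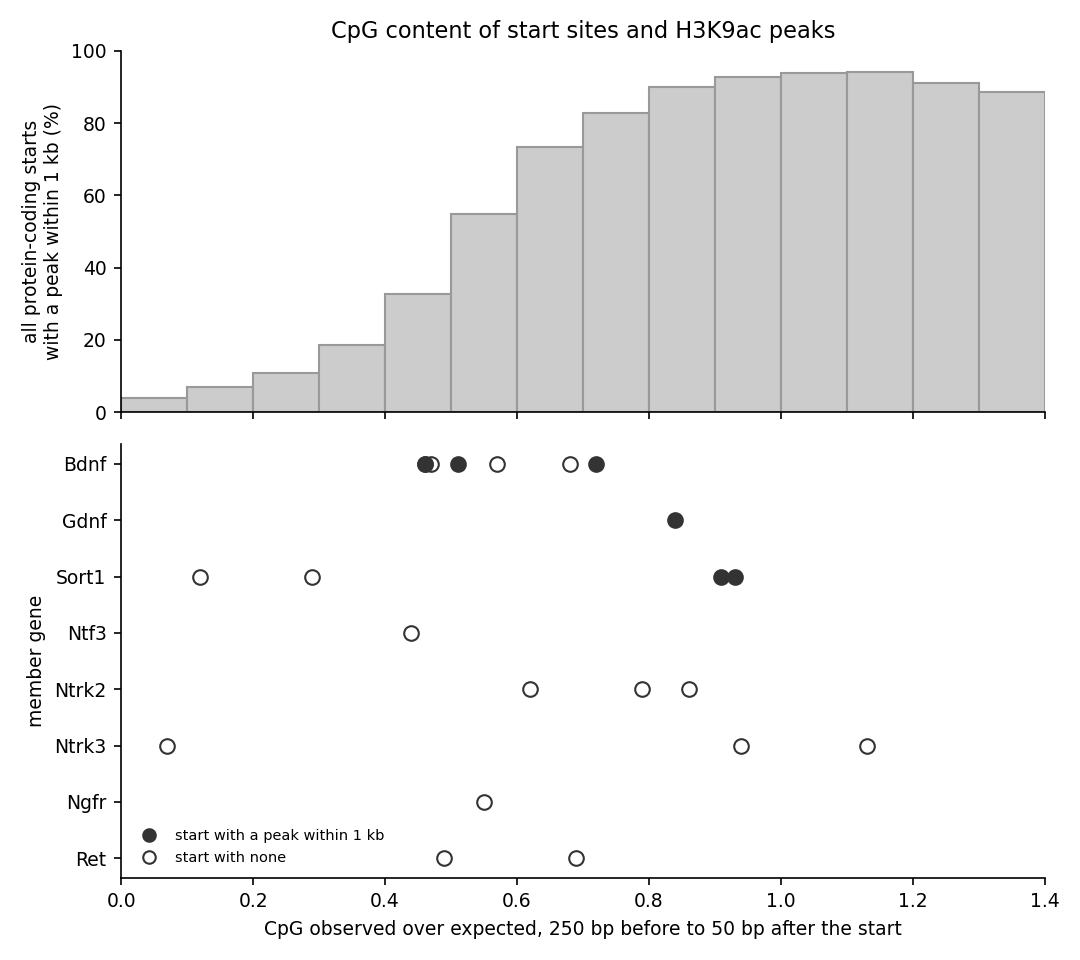
CpG content of start sites, with observed over expected CpG on the shared x axis. Bars in the upper panel are the percent of all protein-coding starts with a peak of either list within 1 kb; points in the lower panel are the annotated starts of the 8 genes, filled where a peak lay within 1 kb, and those of *Ntrk2* and *Ntrk3* are open even at ratios of 0.79 to 1.13.

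For the 11 matched pairs, in which each peak was the nearest overlapping peak of the other list, the score percentile was higher with DOP in 9 pairs and lower in 2. The exceptions were the second peak of *Bdnf* promoter 3 and the peak of promoter 5. The median difference was 4.72 percentile points, with quartiles of 3.38 and 9.03. Over all 25377 matched pairs 59.0% were higher with DOP, and the median difference was 1.34 points, so matched pairs in general leaned the same way. A percentile is a rank among all peaks of its list, matched or not, so this lean does not measure a change in the mark. The difference was over 10 points higher in 3 of the 11 pairs, at the first peak of *Bdnf* promoter 3 (13.5 points), at the *Gdnf* peak 2249 bp downstream (12.0 points) and at the second *Sort1* peak (10.6 points). This was so for 16.9% of all matched pairs. No pair was over 10 points lower, against 10.5% of all pairs.

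The differences were also set against those of peaks of like rank. Among the 15867 matched pairs whose mean percentile lay between 28.8 and 83.7, the range of the pairs described here, 22.4% were over 10 points higher and 14.4% over 10 points lower, and the median difference was 2.10 points. On the log2 scale, relative to the median score of each list, the pairs had a median difference of 0.21, against 0.06 over all pairs. On that scale 0 of the 11 pairs differed by over 0.5, against 22.9% of all pairs, a share not limited to peaks of like rank. The 11 pairs come from 3 genes and neighbouring peaks may share reads, so they are not replicates. With 1 list per condition, whether any of these differences exceeds the spread between samples could not be tested.

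**Figure D4:**
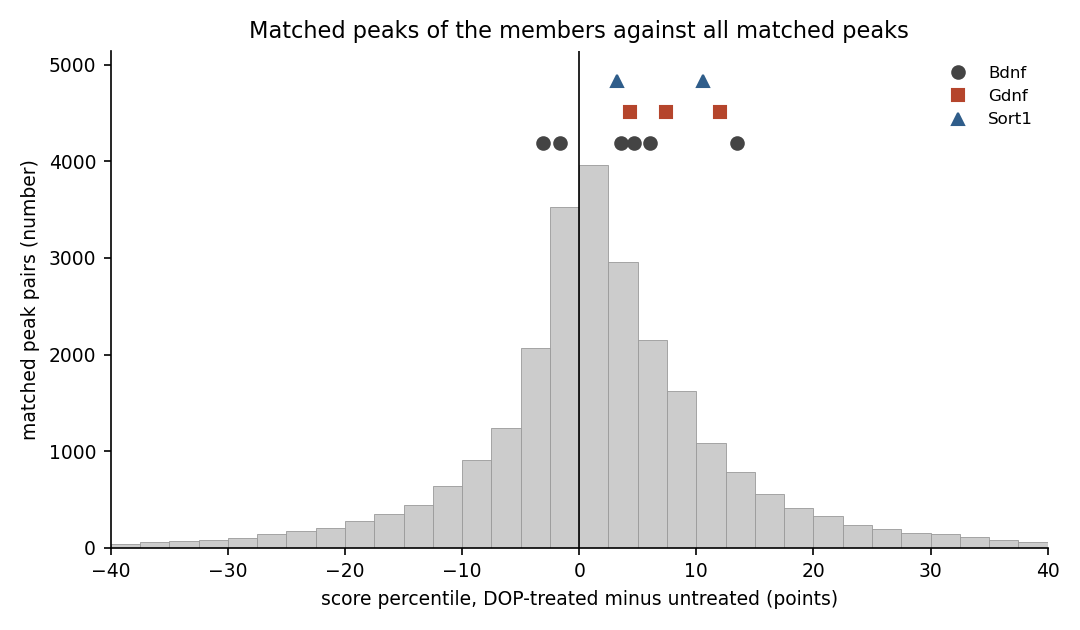
Difference in score percentile between matched peaks, DOP-treated minus untreated, in percentile points on the x axis. Grey bars count all 25377 matched pairs, of which 198 differ by over 40 points and are not drawn, and symbols above them are the pairs of *Bdnf*, *Gdnf* and *Sort1*, of which 9 lie right of 0 and the highest reaches 13.5 points.

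Peaks also lay near other genes of the pathway. Of 64 listed genes, 51 (79.7%) had a DOP-treated peak and 50 (78.1%) an untreated peak, against 57.7% and 56.9% of all protein-coding genes. Of the 52 with a peak in either list, 15 had more DOP-treated than untreated peaks and 21 had fewer, or 28.8% and 40.4%. Over all genes with a peak these shares were 32.5% and 28.5%. The adaptors and effectors that carry Trk and RET signals had a peak at 20 of 22 genes with DOP and 19 without. Among them 11 had fewer peaks with DOP against 5 with more, but rank did not follow peak number. Of those with fewer, the highest peak ranked lower with DOP only at *Shc1* (percentile 91.8 against 94.1) and *Frs2* (98.5 against 98.8). Of those with more, it ranked higher only at *Spry4*, which had no untreated peak. All 6 partners of p75 had peaks in both lists, and 3 of them had fewer with DOP and 0 more. The enzymes that cleave neurotrophin precursors differed in the other direction, with more peaks at 4 of 7 genes and fewer at 0. Ligands and receptors each had 2 genes with more and 1 with fewer, and the regulators of *Bdnf* promoters had 2 with more and 5 with fewer.

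Among the other ligands, *Artn*, a GDNF family ligand, had no peak in either list. *Nrtn*, which encodes neurturin, differed most in number, with 2 DOP-treated and 5 untreated peaks, while its highest peak ranked higher with DOP, at percentile 83.5 against 55.8. Among 11 other receptors and co-receptors, 5 had a DOP-treated and 4 an untreated peak. *Gfra1*, *Gfra2*, *Gfra3* and *Gfra4*, the co-receptors of RET, were among those with none. *Rtn4r*, the Nogo receptor, had 3 DOP-treated peaks and 1 untreated peak, the highest at percentiles 51.9 and 55.6. Of the cleaving enzymes, *Furin* had 4 and 3 peaks and *Mmp9* had 3 and 1, with the highest *Mmp9* peaks at percentiles 23.1 and 22.0. The largest difference among adaptors was at *Frs3*, an FRS family adaptor of Trk receptors, with 7 and 2 peaks, while its highest peak ranked lower with DOP, at percentile 53.1 against 76.2.

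In the pathway list 3 of 64 genes had peaks in 1 list alone, 2 of them in the DOP-treated and 1 in the untreated list, where 2.39% and 1.62% of all genes did. *Sorcs1*, a relative of sortilin, had 2 DOP-treated peaks at percentiles 6.30 and 7.32, and *Spry4*, an inhibitor of receptor kinase signalling, had 1 at percentile 5.35. *Rest* encodes a repressor that binds *Bdnf* and other neuronal genes and is known to be held in the cytoplasm by normal huntingtin. It had 3 untreated peaks, centred 83, 413 and 725 bp downstream of its start at percentiles 77.2, 85.5 and 49.6, whereas the nearest DOP-treated peak lay 43038 bp from the start. Its co-repressor *Rcor1* had 4 DOP-treated and 7 untreated peaks, while its highest peak ranked higher with DOP, at percentile 82.1 against 65.4. *Creb1*, which encodes an activator of *Bdnf*, had 5 in each list. *Arhgdia*, which encodes a partner of p75, had 8 and 9.

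Of 80 other genes with the same numbers of peaks as *Bdnf*, 6 and 7, the genes closest to it in the percentiles of their highest peaks over the 2 lists were *Taok2* (85.2 and 84.8, a distance of 2.37 points), *Gtf3c2* (84.8 and 85.9, 2.39 points) and *Ndufb10* (80.3 and 83.6, 2.73 points).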

How the data were processed

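H3K9ac ChIP-seq libraries of STHdh Q111 cells, 2 DOP-treated and 2 untreated, were sequenced single-end. The reads were aligned to mm9, with Bowtie 2 according to the paper and BWA 0.7.10 according to the submitters' processing notes, and peaks were called with GPS, named GEM in the file headers. The authors deposited 1 list per condition, with a peak score that the lists do not define, so replicates, depth and threshold are unknown. The lists hold 34286 DOP-treated and 33355 untreated peaks. For each condition the paper reports fewer, so the lists need not be the set of peaks it used. Intervals are 200 bp wide, and 0 of 67641 peaks ran past a chromosome end of NCBIM37 (mm9). The IgG sample was not analysed here.

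Starts came from all transcripts in GENCODE vM1. Peaks were shared when their intervals overlapped by at least 1 bp, and matched when each was also the nearest of the other list. RefSeq starts (sequence table of GRCm38.p6) were placed by exact match of their sequences in NCBIM37, and 5 of the 8 genes had an entry. The genes named were the 8 members, per pathway role the gene differing most in peak number, those with peaks in 1 list only, and the 3 genes most like *Bdnf*. Further pathway and marker genes (*Artn*, the *Gfra* genes, *Furin*, *Creb1* and the markers) were chosen for mention after their values were seen, and some listed genes are not reported here by name. The members and gene lists were chosen with earlier results of these data known. The functions recovered 7 of 7 planted answers. Those on shared, one-list and higher-ranked peaks used 5000 simulated sites, and those on windows, promoters and strand used a few set positions. Python 3.11.15, numpy 2.4.6, scipy 1.17.1, pysam 0.24.0 and matplotlib 3.10.9 were used.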

Additional observations from a re-analysis of the deposited data

How the results depend on the processing

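No paired analysis was possible because a list stands for a whole condition with no value per sample, so no sample could be left out either. Other windows, starts, score limits and ways of sharing gave 50 values, of which 45 stayed within 1.5 times the reported one and 5 did not. Not all of these values could move. Every peak near the 8 genes scored above 100, and none lay between 5 and 20 kb from a start. The score limit of 100 and the windows of 5 and 20 kb therefore could change no count. Looser sharing could not raise a count of 0, so the 45 overstates how far the results were put to a test. The genes with a peak stayed 3 in each list, except for 2 in the top 50% by score. The top 50% of each list by score left 6 DOP-treated and 5 untreated peaks near the 8 genes, since fewer peaks enter. With sharing by centres within 500 bp or within 2 kb, the untreated-only peaks of the group fell from 1 to 0, as the wider limit takes in the neighbouring peak 331 bp away. On the log2 score relative to the list median, with a limit of 0.5, 0 of the 11 matched pairs differed by more than the limit, against 22.9% of all pairs, where the limit of 10 percentile points gave 3 of 11 and 27.3%. Adding RefSeq starts, chosen after seeing the data, changed none of the 4 counts of genes and peaks. How far depth limits the calling of weak peaks is not known, since the lists give no read counts.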

Other observations

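RefSeq gives *Bdnf* 7 starts, all of which were found in NCBIM37. Of these, 3 lie over 500 bp from any GENCODE vM1 start. The start at 109533184 lies between promoters 4 and 5, and its nearest peak, downstream of it, was the peak of promoter 5, at 825 bp in the DOP-treated and 853 bp in the untreated list. The starts at 109549540 and 109563078 lie toward the 3' end of the gene and had no peak within 10 kb in either list. The nearest DOP-treated peaks were 14092 and 27630 bp upstream of them. *Ntf3* has a further RefSeq start at 126114978, also with no peak within 10 kb, and *Gdnf* one at 7760048, with its nearest peaks 827 and 837 bp downstream. No RefSeq sequence of *Ntrk3*, *Sort1* or *Ret* was used here.

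The peaks differed in base composition. In the untreated list, GC content after *Bdnf* promoter 3 was 67.5% in the first peak, 70.0% in the second and 39.5% in the third, against a median of 59.5% over all untreated peaks. The *Gdnf* intron peaks of that list had 60.5% and 70.0%, and the *Sort1* peaks 66.0% and 83.0%.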
